A study of Mus musculus with 6 samples.

Results

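Expression of 9 genes, endothelial nitric oxide synthase (eNOS, encoded by Nos3) and the factors that regulate it, was examined in endothelial cell-enriched fractions of ischemic mouse muscle. The genes were chosen by name and not by a measured threshold, and all 9 were found among the 47729 genes of the count files. They were Nos3, the flow-responsive transcription factors Klf2 and Klf4, the caveolins Cav1 and Cav2, the chaperones Hsp90aa1 and Hsp90ab1, and the dimethylarginine-degrading enzymes Ddah1 and Ddah2. RNA-seq was performed on CD144-enriched cells (CD144 is VE-cadherin, an endothelial adhesion protein) of mice fed a high-fat high-sucrose (HFHS) diet. Hind limb ischemia (HLI) surgery was done on day 0, by the labels adenovirus was given into the muscle on days 1 and 4, and muscle was taken after 1 week; the study's text places the second injection later. The 3 groups, each of 2 libraries, were WT mice given Ad-GFP (WT + GFP), Leene-KO mice given Ad-GFP (KO + GFP), and Leene-KO mice given Ad-LEENE, which carries the human lncRNA (KO + LEENE). All groups thus shared the diet, the surgery and an adenovirus. The Leene-KO line is a whole-body deletion made by CRISPR/Cas9 and crossed to C57BL/6J mice, and the vector was not described as restricted to a cell type. The labels give neither the age nor the sex of these mice, nor whether animals were pooled. Neither Leene nor the transgenes were analysed here, so the genotype was not checked against its target.

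eNOS makes nitric oxide from arginine in endothelial cells, and nitric oxide relaxes vessels and is needed for the angiogenic response to ischemia. Laminar flow raises KLF2 and KLF4, which activate transcription of the eNOS gene. The enzyme is held inactive by caveolin-1 in caveolae, is activated by calmodulin when calcium rises, and depends on the chaperone HSP90 for its phosphorylation by AKT. The DDAH enzymes degrade methylated arginines, which are endogenous inhibitors of eNOS.

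The libraries held from 1770992 to 5602603 reads assigned to genes, and 3 reads, taken as the smallest countable level, were 0.535 to 1.69 CPM (reads scaled to the library total). Mitochondrially encoded genes took 50.1% and 50.9% of reads in WT + GFP and 33.6% to 34.3% in the other libraries. The file headers carry only 3 facility sample numbers, 1 for each group, so the 2 libraries of a group may come from 1 RNA preparation, and adjusted P values then cover the spread between libraries and not between mice. The groups differed widely: of 8903 genes tested, 70.1% differed between KO + GFP and WT + GFP at an adjusted P value under 0.05 (edgeR), 67.8% between KO + LEENE and KO + GFP, and 70.7% between KO + LEENE and WT + GFP libraries. Of 19 genes that every cell uses, 7 were at or under 3 reads in both libraries of at least 1 group. Gapdh reached 9 reads at most, and the WT + GFP libraries held 537 and 504 Actb reads, those of KO + GFP 58995 and 38293 and those of KO + LEENE 298 and 341. Of Cdh5, the CD144 gene, the WT + GFP libraries held 332 and 283 reads, those of KO + GFP 322 and 196 and those of KO + LEENE 5 and 18, so the marker used for enrichment was low in the last group. Another endothelial marker, Pecam1, had from 89 to 211 reads in every library, and of 10 endothelial markers tested 3 were higher and 6 lower in KO + LEENE against KO + GFP. Over all genes tested, 32.8% were higher and 34.9% lower in that comparison.

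On TMM-scaled CPM the 3 groups did not overlap for Klf4, Cav1, Hsp90aa1 and Hsp90ab1, Ddah1 and Ddah2 stood apart in KO + GFP alone, and Nos3, Klf2 and Cav2 had few reads in every group. For Cav1, WT + GFP and KO + LEENE did overlap on CPM by library total. The share of all genes without overlap is not given here. Since 67.8% to 70.7% of all genes tested were called in each comparison, nothing particular to these genes is read from the separation. In KO + GFP against WT + GFP, given below as the change by KO, Klf4, Cav1, Ddah1 and Ddah2 rose while Hsp90aa1 and Hsp90ab1 fell. In KO + LEENE against KO + GFP, Hsp90ab1 rose and Klf4, Cav1, Hsp90aa1, Ddah1 and Ddah2 fell. Nos3 was called in neither of these comparisons, and Klf2 and Cav2 had too few reads to be tested. Of 25 pairs of libraries of 1 group with reads for a gene, none differed beyond counting error at an unadjusted P value of 0.05 (exact binomial test, two-sided), and the smallest P value was 0.0814. Pairs with very few reads, such as Cav2 in WT + GFP (2 and 0) and Ddah2 in KO + LEENE (1 and 1), could not reach 0.05 at any split. For such pairs the test shows nothing about agreement between libraries.

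**Figure D1:**
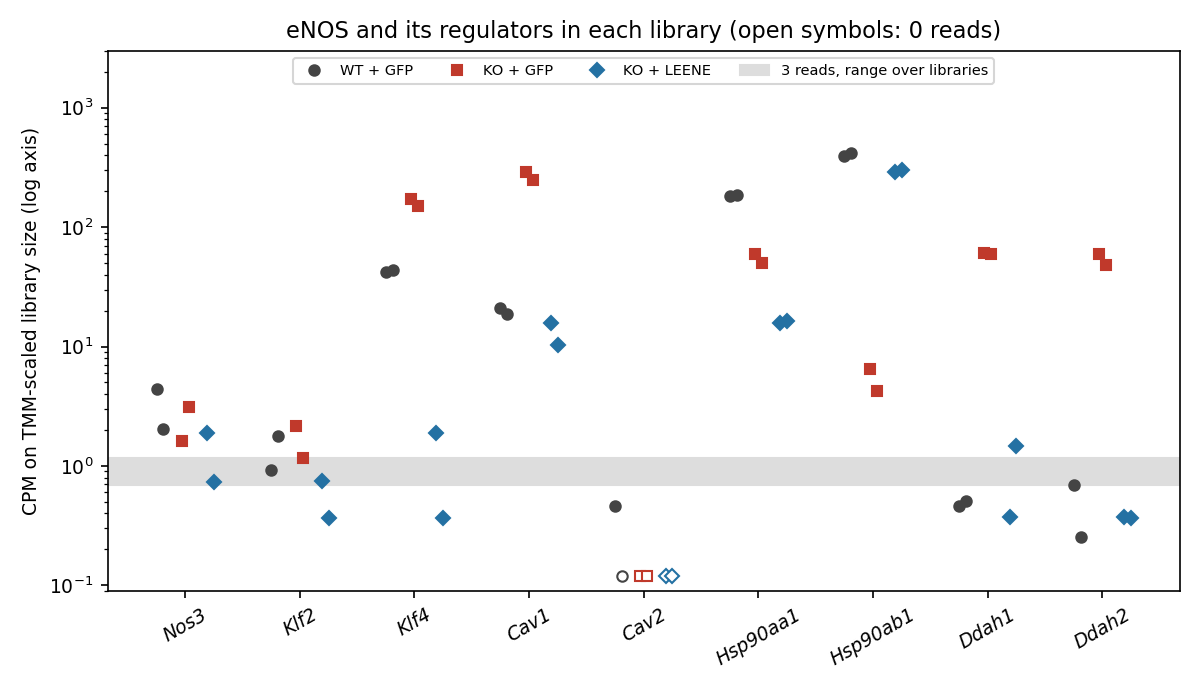
Level of each gene in each library, as CPM on TMM-scaled library size (log axis), with 1 symbol per library and the grey band marking the level of 3 reads over the libraries. Klf4, Cav1, Ddah1 and Ddah2 are highest in the 2 KO + GFP libraries, Hsp90ab1 is lowest there, and Nos3 and Klf2 lie near the band in every group; open symbols at the bottom stand for 0 reads.

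Markers of other cells moved with the genes that were highest in KO + GFP. The 8 fibroblast markers summed to 22346 and 24291 CPM in KO + GFP and to 54.3 to 72.9 in the other libraries, with 4 of 5 tested genes higher by KO and S100a4 at 0 reads in KO + GFP. Without Dcn, the highest of them, the others summed to 6463 and 6986 CPM against 38.1 to 57.0. The 9 macrophage markers summed to 1136 and 1284 CPM in KO + GFP against 8.13 to 33.2 elsewhere, with 4 of 4 tested genes higher, Itgam at 0 reads in KO + GFP, and Adgre1 at 1823 and 1060 and Fcgr1 at 143 and 91 reads there. The 6 adipocyte markers summed to 11045 and 12118 CPM against 188 to 245, with 3 of 4 higher. Fabp4 alone gave 10734 and 11780 CPM of this in KO + GFP, and the other 5 summed to 311 and 338 CPM against 183 to 238 elsewhere, while Adipoq had at most 1 read in a library. The 12 endothelial markers summed to 3698 and 3717 CPM there, of which Emcn alone gave 3363 and 3330, while the other 11 summed to 335 and 387 CPM against 409 and 441 for WT + GFP libraries and 192 and 206 for those of KO + LEENE. Of 10 endothelial markers tested, 3 were higher and 3 lower by KO. The 19 genes used by every cell summed to 25848 and 27768 CPM in KO + GFP and to 594 to 1239 elsewhere, and 10 of 14 tested were higher by KO. The 8 skeletal muscle markers summed to 47.8 and 51.7 CPM in KO + GFP and to 4.09 to 21.4 elsewhere, with 2 of 4 higher, Myh4 and Pvalb. These 2 and Adgre1 passed the filter on low counts only in KO + GFP, where they were high, so their direction is a description. Over all genes tested, 34.2% were higher and 35.9% lower by KO. The 8 mural markers summed to 26.2 and 33.6 CPM in KO + LEENE and to 4.87 to 7.34 elsewhere, with Acta2 at 0 reads in KO + GFP. Rgs5 alone gave 19.1 and 25.5 CPM of the KO + LEENE sums. In bulk samples such as these, fewer cells of a type and less RNA per cell cannot be told apart, and the part of these markers in the changes of Klf4, Cav1, Ddah1 and Ddah2 was not tested.

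Nos3 (ENSMUSG00000028978) spans 24364810 to 24384474 on the plus strand of chromosome 5 (GRCm38). The WT + GFP libraries held 19 and 8 Nos3 reads, those of KO + GFP 6 and 8 and those of KO + LEENE 5 and 2. On TMM-scaled CPM these levels were 3.22 ± 1.67 (SD, n = 2), 2.37 ± 1.05 and 1.31 ± 0.802. The groups overlapped except that both KO + LEENE libraries lay below both WT + GFP libraries. The log2 fold change of Nos3 by KO was -0.54 ± 0.52 (SE; 95% interval -1.55 to 0.48, adjusted P = 0.359, edgeR), and -0.77 ± 0.70 in KO + LEENE against KO + GFP (95% interval -2.15 to 0.61, adjusted P = 0.338, edgeR). These intervals span both a fall and a rise, so a difference of this size was not detectable at this depth. Set against WT + GFP, Nos3 in KO + LEENE had a log2 fold change of -1.31 ± 0.62 (adjusted P = 0.0485, edgeR), with 95% bounds of -2.52 and -0.10. That call was lost in 10 of the 11 alternative settings in which Nos3 could be tested, and its adjusted P value over those 11 ran from 0.0228 to 0.55 (edgeR and DESeq2). The log2 fold change was negative in all 11, from -2.05 without the first KO + LEENE library to -0.65 with library size only. The call was kept only without the second WT + GFP library (-1.74); without the first the value was -0.66, with an adjusted P value of 0.55 (edgeR).

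Nos3 overlaps Atg9b on the other strand, and the authors counted reads without strand. Atg9b, an autophagy gene on the minus strand (24384181 to 24392143), covers the last 294 exonic bases of Nos3, which is 29.4% of the final 1000 bases, where a kit that primes at the poly(A) tail places most reads. By the default of the counter, a read that lies over exons of both genes is given to neither, and the command in the headers names no option that changes this. Atg9b itself had 3 and 0, 3 and 2, and 0 and 0 reads in WT + GFP, KO + GFP and KO + LEENE. The lncRNA gene Gm15587, also on the minus strand, shares 1040 exonic bases with Nos3 (25.2% of its exonic length), of which 85 lie in the final 1000, and it had 1 read in all. Reads over the shared bases are thus not in the Nos3 values, and the strand of the reads that are is not known.

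**Figure D2:**
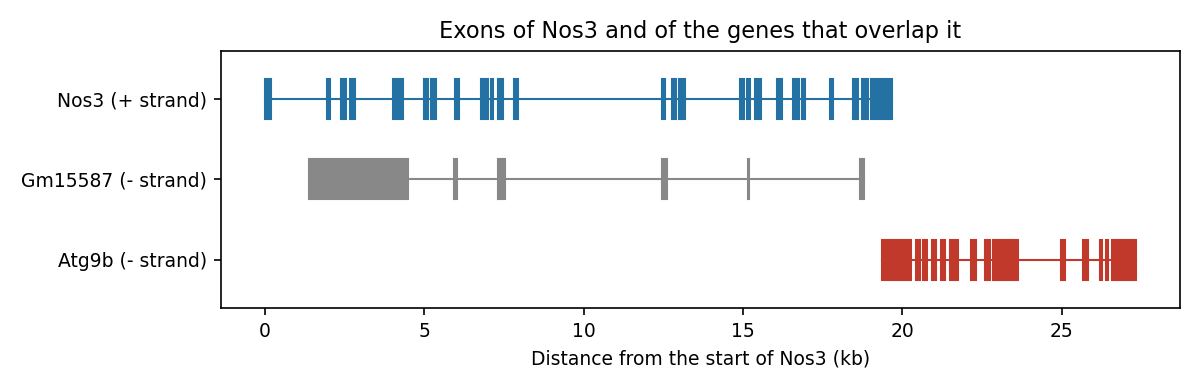
Exons (boxes) of Nos3 and of the genes that overlap it, by distance from the start of Nos3 in kb, each row 1 gene with its strand. Atg9b runs into the 3′ end of Nos3 from the other strand, over 294 exonic bases, and Gm15587 lies within Nos3.

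Klf2 (ENSMUSG00000055148, chromosome 8, 72319033 to 72321656) is the principal flow-induced activator of Nos3. Klf2 reads numbered 4 and 7 in the WT + GFP libraries, 8 and 3 in the KO + GFP libraries and 2 and 1 in the KO + LEENE libraries. It did not reach the level required for testing. WT + GFP and KO + GFP overlapped, and KO + LEENE was lowest but at or under 3 reads; the ratio of KO + GFP to KO + LEENE was 3.15 with an exact 95% counting interval of 0.833 to 17.6.

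Klf4 (ENSMUSG00000003032, chromosome 4, 55527143 to 55532466), a related factor that shares many targets with KLF2, was measured well. The WT + GFP libraries held 180 and 171 Klf4 reads, those of KO + GFP 630 and 389 and those of KO + LEENE 5 and 1. The 3 groups did not overlap, with KO + GFP highest and KO + LEENE nearly without reads. Klf4 rose by a log2 fold change of 1.93 ± 0.11 (SE) by KO (adjusted P = 7.98e-63, edgeR) and fell by 7.14 ± 0.24 on the log2 scale in KO + LEENE against KO + GFP (adjusted P = 8.16e-141, edgeR). Against WT + GFP Klf4 in KO + LEENE differed by -5.21 ± 0.32 on the log2 scale (adjusted P = 1.63e-51, edgeR). Without the first or the second KO + LEENE library the latter value was -6.67 or -4.43, and that against KO + GFP -8.60 or -6.36, each still called. Because KO + LEENE held 6 reads in all, the ratio of KO + GFP to KO + LEENE was 146 with a counting interval of 66.9 to 399. Klf2 took 2.17% and 3.93% of the reads of the pair in WT + GFP and 1.25% and 0.765% in KO + GFP, and the exact 95% intervals of these 4 libraries lay within 0.158% to 7.93%. In KO + LEENE, with 7 and 2 reads of the pair, the shares were 28.6% and 50%, with intervals of 3.67% to 71.0% and 1.26% to 98.7%.

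Cav1 (ENSMUSG00000007655, chromosome 6, 17306335 to 17341452) encodes caveolin-1, the structural protein of caveolae that binds and inhibits eNOS. Cav1 reads numbered 91 and 73 in the WT + GFP libraries, 1066 and 643 in the KO + GFP libraries and 42 and 28 in the KO + LEENE libraries. KO + GFP stood far above the other groups, which were near each other; these did not overlap on TMM-scaled CPM but did on CPM by library total, where the WT + GFP libraries were at 17.7 and 20.1 and those of KO + LEENE at 15.6 and 23.7. By KO, the log2 fold change of Cav1 was 3.77 ± 0.11 (SE, adjusted P = 1.70e-171, edgeR), and it was -4.38 ± 0.14 in KO + LEENE against KO + GFP (adjusted P = 4.75e-162, edgeR). Relative to WT + GFP, that of KO + LEENE was -0.61 ± 0.21 (adjusted P = 0.006, edgeR). That small difference depended on scaling, since with library size only it was 0.056 (adjusted P = 0.829), and it was not called without the first WT + GFP library (-0.54) or the second KO + LEENE library (-0.29).

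Cav2 (ENSMUSG00000000058, chromosome 6, 17281185 to 17289115), which encodes the partner that assembles with caveolin-1, lies upstream of Cav1 on the same strand. It had 2 reads in the first WT + GFP library and 0 in the other 5 libraries, at or under the 3 reads that a count of 0 allows. Cav2 was therefore not detectable at this depth in any group, also in KO + GFP where Cav1 had at least 643 reads in each library. The lncRNA gene Gm15581 overlaps the span of both caveolins on the minus strand but shares none of their exonic bases.

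Hsp90aa1 (ENSMUSG00000021270, chromosome 12, 110690605 to 110702728) encodes the inducible form of the chaperone HSP90, and Hsp90ab1 (ENSMUSG00000023944, chromosome 17, 45567775 to 45573271) the constitutive form. The WT + GFP libraries held 782 and 727 Hsp90aa1 reads, those of KO + GFP 221 and 129 and those of KO + LEENE 42 and 44, a stepwise order without overlap. It fell by 1.72 ± 0.10 (SE) on the log2 scale by KO (adjusted P = 8.93e-57, edgeR) and was lower again in KO + LEENE than in KO + GFP (log2 fold change -1.80 ± 0.17, adjusted P = 3.78e-24, edgeR). With library size only, the latter value was -0.64 (adjusted P = 2.72e-04, edgeR). Against WT + GFP the log2 fold change in KO + LEENE was -3.52 ± 0.14 (adjusted P = 1.09e-115, edgeR).

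Hsp90ab1 followed another order. Hsp90ab1 reads numbered 1713 and 1640 in the WT + GFP libraries, 24 and 11 in the KO + GFP libraries and 767 and 811 in the KO + LEENE libraries. KO + GFP was far below both other groups. Hsp90ab1 fell by 6.18 ± 0.13 (SE) on the log2 scale by KO (adjusted P = 1.72e-262, edgeR) and rose by 5.70 ± 0.14 in KO + LEENE against KO + GFP (adjusted P = 2.45e-219, edgeR). Of the 7 tested genes, Hsp90ab1 alone was called lower by KO and higher in KO + LEENE against KO + GFP, on the TMM scale and with library size only. Relative to WT + GFP, Hsp90ab1 in KO + LEENE had a log2 fold change of -0.47 ± 0.07 (adjusted P = 8.98e-11, edgeR), but with library size only it became 0.20 (adjusted P = 0.00165), so the direction of this small difference was set by the scaling.

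The split of reads between the HSP90 genes does not depend on library scaling. Hsp90aa1 took 31.3% and 30.7% of the reads of the pair in the WT + GFP libraries, 90.2% and 92.1% in those of KO + GFP and 5.19% and 5.15% in those of KO + LEENE. The exact 95% binomial intervals were 28.9% to 33.2% over the WT + GFP libraries, 85.8% to 96.0% over KO + GFP and 3.76% to 6.95% over KO + LEENE, and they did not overlap between groups. These shares are of reads and are not corrected for length, so they compare groups and not the amounts of the 2 transcripts. Reads that also align to a near-identical copy, a paralog or pseudogene, were not counted, which leaves both genes uncertain to that extent. With 2 libraries per group no permutation test can pass 0.05, and none was run.

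**Figure D3:**
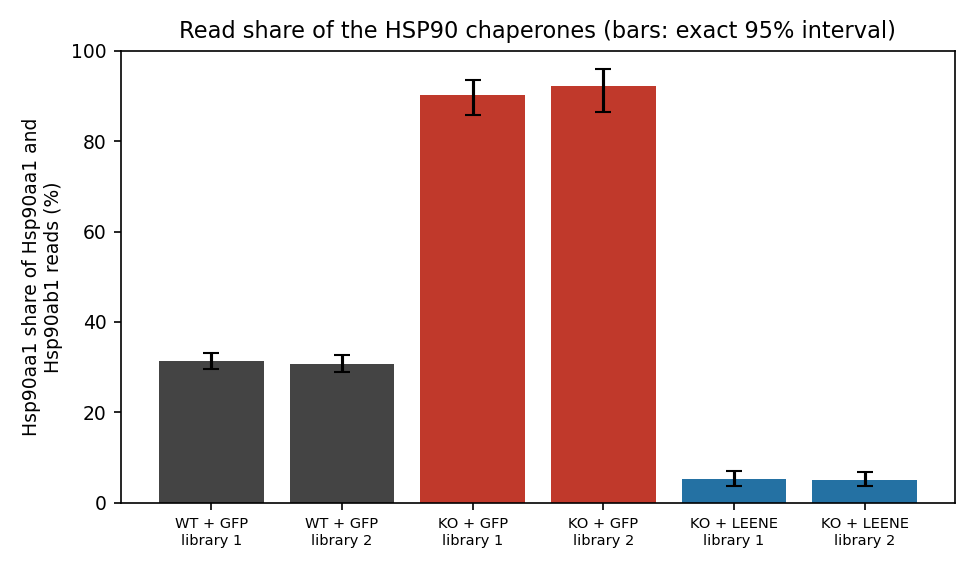
Share of Hsp90aa1 among the reads of Hsp90aa1 and Hsp90ab1 in each of the 6 libraries, in percent, with exact 95% binomial intervals as error bars that cover counting error only. The share is near 31% in WT + GFP, above 90% in KO + GFP and near 5% in KO + LEENE, and libraries of 1 group agree within their intervals.

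Ddah1 (ENSMUSG00000028194, chromosome 3, 145758675 to 145894277) and Ddah2 (ENSMUSG00000007039, chromosome 17, 35059035 to 35062095) encode the enzymes that hydrolyze asymmetric dimethylarginine. The WT + GFP libraries held 2 and 2 Ddah1 reads, those of KO + GFP 225 and 153 and those of KO + LEENE 1 and 4. For Ddah2 the WT + GFP libraries held 3 and 1 reads, the KO + GFP libraries 219 and 125, and the KO + LEENE libraries 1 each. Both genes were near or under 3 reads outside KO + GFP, and no library of another group reached any KO + GFP library. By KO, the log2 fold change was 6.85 ± 0.33 (SE) for Ddah1 and 6.71 ± 0.34 for Ddah2. As ratios of reads, Ddah1 in KO + GFP was 124 times its WT + GFP level, with a counting interval of 48.2 to 459, and Ddah2 113 times, with an interval of 43.8 to 418. In KO + LEENE against KO + GFP, the log2 fold change was -5.97 ± 0.34 for Ddah1 and -7.06 ± 0.41 for Ddah2, and the ratios of KO + GFP to KO + LEENE reads were 65.0 with a counting interval of 27.6 to 201 and 148 with one of 40.6 to 1226. Between the KO + LEENE and WT + GFP libraries, Ddah1 had a log2 fold change of 0.89 ± 0.99 with an interval of -1.06 to 2.83, and Ddah2 was at or under 3 reads in each of these 4 libraries. Within KO + GFP the genes had similar read counts, with Ddah1 taking 50.7% and 55.0% of the reads of the pair. Ddah1 and Ddah2 passed the filter on low counts in KO + GFP only, so they could enter the test only through the group where they were high, and their folds are given as a description, with no P value.

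The promoters of the 4 members that rose by KO are shown because these genes were each highest in KO + GFP, by different amounts, and because KLF factors, themselves members, bind a CACCC core. Sequences are from a set of RefSeq promoters on GRCm38.p6 that held 6 of the 9 genes (Klf2, Klf4, Cav1, Cav2, Ddah1 and Ddah2). That set had no entry for Nos3, Hsp90aa1 or Hsp90ab1. Each window runs from 250 bases before to 50 after the RefSeq start, 5′ to 3′ on the strand of the gene. For Cav1 the set held 2 promoters, and only the one nearest the gene start in the count files was searched. Capitals mark CACCC or its reverse complement GGGTG, and the E-box CACGTG, a motif bound by MYC; the motifs were searched on both strands and did not overlap.
Klf4, chr4:55532426-55532725, minus strand: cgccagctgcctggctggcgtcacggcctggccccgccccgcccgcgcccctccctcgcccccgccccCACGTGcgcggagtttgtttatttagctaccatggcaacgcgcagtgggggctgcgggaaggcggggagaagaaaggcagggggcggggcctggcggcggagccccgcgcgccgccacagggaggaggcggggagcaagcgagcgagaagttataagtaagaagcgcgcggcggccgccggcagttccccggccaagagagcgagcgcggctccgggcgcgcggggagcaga
Cav1, chr6:17306085-17306384, plus strand: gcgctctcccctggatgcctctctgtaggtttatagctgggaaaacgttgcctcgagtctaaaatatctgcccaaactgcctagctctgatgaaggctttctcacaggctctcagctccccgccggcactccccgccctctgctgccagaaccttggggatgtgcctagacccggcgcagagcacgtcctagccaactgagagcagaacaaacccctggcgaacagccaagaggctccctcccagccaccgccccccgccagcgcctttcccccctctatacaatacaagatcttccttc
Ddah1, chr3:145758442-145758741, plus strand: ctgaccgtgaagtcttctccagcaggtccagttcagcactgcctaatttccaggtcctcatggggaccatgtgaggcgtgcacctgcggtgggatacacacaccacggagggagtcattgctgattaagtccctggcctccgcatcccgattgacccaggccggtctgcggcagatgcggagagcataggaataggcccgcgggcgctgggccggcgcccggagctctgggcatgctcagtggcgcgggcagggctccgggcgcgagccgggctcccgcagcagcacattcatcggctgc
Ddah2, chr17:35058785-35059084, plus strand: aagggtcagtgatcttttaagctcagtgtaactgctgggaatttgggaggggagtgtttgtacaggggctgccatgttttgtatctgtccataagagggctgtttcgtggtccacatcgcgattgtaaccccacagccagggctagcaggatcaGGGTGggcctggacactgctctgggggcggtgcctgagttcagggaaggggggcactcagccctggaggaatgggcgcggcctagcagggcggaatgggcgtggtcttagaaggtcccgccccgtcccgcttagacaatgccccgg

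The CACCC core stood in the Ddah2 window and not in the Klf4, Cav1 or Ddah1 windows, while 57.5% of 32817 promoter windows of the same length held it. The E-box stood in the Klf4 window, and 7.15% of all windows held it. The GC content of the windows was 74.3% for Klf4, 59.3% for Cav1, 65.7% for Ddah1 and 59.7% for Ddah2, against a median of 52.7% over all windows. A match is a description of these letters, and no binding was measured here.

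**Figure D4:**
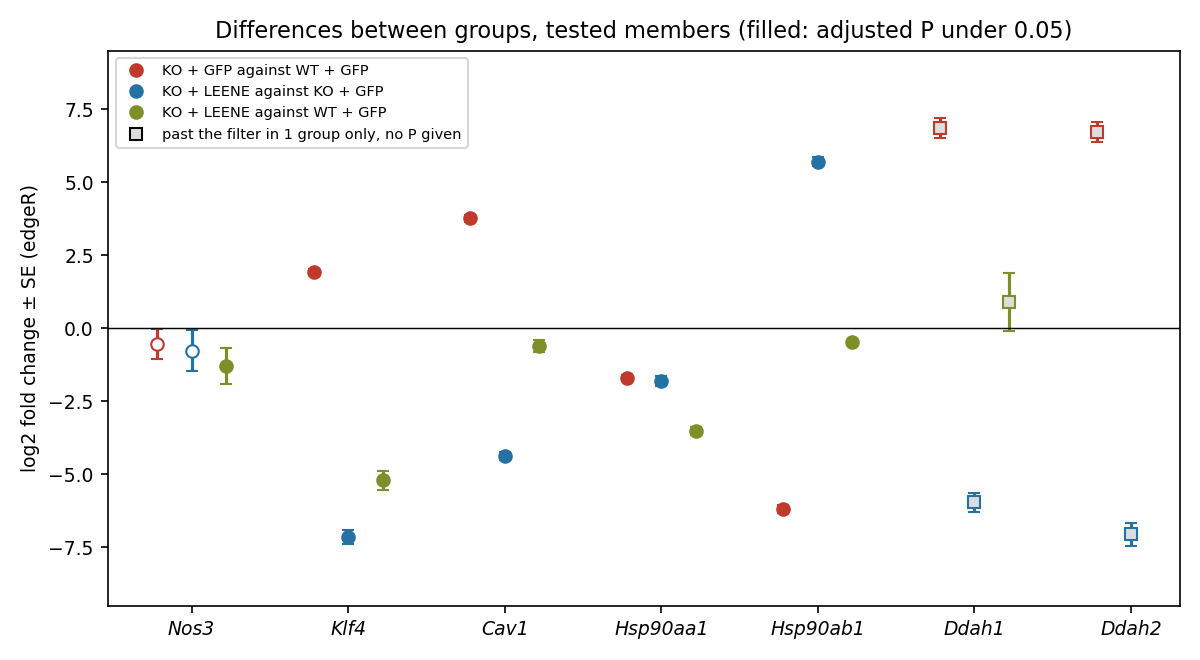
Log2 fold change ± SE from edgeR of the 7 genes tested, for each of the 3 comparisons; filled circles have an adjusted P value under 0.05, open circles do not, and grey squares mark Ddah1 and Ddah2, which passed the filter in KO + GFP only and carry no P value. Symbols for KO + GFP against WT + GFP and for KO + LEENE against KO + GFP lie on opposite sides of 0 for Klf4, Cav1, Hsp90ab1, Ddah1 and Ddah2 and on the same side for Hsp90aa1 and, with neither called, for Nos3; these comparisons share the KO + GFP libraries. Ddah2 is not drawn for KO + LEENE against WT + GFP, where it was at or under 3 reads in each library.

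Of the 9 genes, 7 passed the filter on low counts. Each group enters 2 of the 3 comparisons, so the comparisons share libraries. By KO, 4 were called higher and 2 lower, where 34.2% of all genes tested were called higher and 35.9% lower; of the 4, Ddah1 and Ddah2 entered the test only through KO + GFP, where they were high. For KO + LEENE against KO + GFP, 1 was called higher and 5 lower, the same 2 genes among the 5, against 32.8% and 34.9% of all genes. In the comparison of KO + LEENE with WT + GFP, 0 were called higher and 5 lower, against 33.9% and 36.9%. With 7 genes tested and most genes called in each comparison, nothing particular to the 9 genes is read from these counts. With library size only in place of TMM, the median over all genes of the log2 fold change moved from -0.09 to -0.57 by KO, from -0.01 to 1.07 in KO + LEENE against KO + GFP, and to 0.50 from -0.11 where KO + LEENE was set against WT + GFP. The share of calls that were lower then moved from 51.5% to 32.9% in the second comparison and from 52.1% to 40.1% in the last. A difference smaller than this shift, such as that of Calm2, a calmodulin gene, in KO + LEENE against KO + GFP, is thus relative to the TMM scale. In the last comparison the 9 genes then gave 1 higher and 2 lower.

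Calmodulin binds eNOS when calcium rises, and Calm2 and Calm3 are among the genes that encode it. Pairs of reads for these and the genes that follow are ordered as WT + GFP, KO + GFP and KO + LEENE. Calm3 had 135 and 135, 4 and 4, and 17 and 14 reads. Calm2 had 44 and 33, 35 and 27, and 19 and 13 reads, a smaller spread between groups. By KO, Calm3 fell by 4.64 ± 0.34 (SE) on the log2 scale (adjusted P = 1.33e-38, edgeR), and Calm2 had a log2 fold change of 0.09 ± 0.28 (adjusted P = 0.806, edgeR). In KO + LEENE against KO + GFP, Calm3 rose by 2.14 ± 0.55 (adjusted P = 2.05e-04, edgeR) and Calm2 fell by 0.73 ± 0.34 (adjusted P = 0.0468, edgeR). Relative to WT + GFP, Calm3 in KO + LEENE differed by -2.50 ± 0.26 on the log2 scale (adjusted P = 3.34e-21, edgeR).

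The other genes of the nitric oxide pathway were taken from lists of 98 genes, calmodulin included, of which 62 were tested. By KO, 23 rose and 23 fell; in KO + LEENE against KO + GFP, 23 rose and 26 fell; and in KO + LEENE against WT + GFP, 24 rose and 22 fell. Over all genes tested, 34.2% were higher and 35.9% lower by KO, 32.8% and 34.9% in KO + LEENE against KO + GFP, and 33.9% and 36.9% in the last comparison, and the count of each list is to be read against these shares. Of the 62, 25 passed the filter on low counts in 1 group only, so that their entry into the test depended on that group; no P value is given for these, and the counts of calls include them. The median log2 fold changes of the 62 were 0.11, -0.28 and -0.24, beside -0.09, -0.01 and -0.11 over all genes tested.

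Caveolae also need coat proteins, the cavins and the ATPase EHD2 among them. Of 8 such genes 5 were tested, with 2 higher and 2 lower by KO, 1 higher and 4 lower in KO + LEENE against KO + GFP, and 2 higher and 2 lower in KO + LEENE against WT + GFP. The WT + GFP libraries held 14234 and 12897 Cavin2 reads, those of KO + GFP 7 and 4 and those of KO + LEENE 2 and 0. Its log2 fold change by KO was -10.84 ± 0.20 (SE), opposite in sign to that of Cav1. Ehd2 had 6 and 5, 1680 and 1081, and 12 and 15 reads, with log2 fold changes of 8.32 ± 0.16 by KO and -6.44 ± 0.15 in KO + LEENE against KO + GFP, in the directions of Cav1.

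Of 15 HSP90 relatives and cochaperones 10 were tested, and 6 rose and 2 fell by KO, 2 rose and 6 fell in KO + LEENE against KO + GFP, and 2 rose and 3 fell against WT + GFP. Of these, Trap1, Stip1, Hspa1b and Hsf1 passed the filter on low counts in KO + GFP only, and Ahsa1 in KO + LEENE only, each where it was high. Hsf1, the transcription factor of the heat shock response, had 8 and 6 reads in the WT + GFP libraries, 397 and 264 in those of KO + GFP and 0 and 0 in those of KO + LEENE. The log2 fold change of Hsf1 by KO was 5.92 ± 0.23 (SE). The inducible chaperone Hspa1b had 1 and 3, 109 and 67, and 4 and 4 reads and a log2 fold change of -4.20 ± 0.37 in KO + LEENE against KO + GFP. Ahsa1, which stimulates the ATPase of HSP90, had at most 1 read in a library of WT + GFP or KO + GFP and 80 and 96 in KO + LEENE. Hsf1 and Hspa1b thus had their highest counts in KO + GFP, where both HSP90 genes were lower than in WT + GFP.

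Of 13 KLF relatives and upstream factors 8 were tested, with 4 higher and 3 lower by KO, 3 higher and 3 lower in KO + LEENE against KO + GFP, and 3 higher and 4 lower against WT + GFP. Mef2c, a factor through which flow induces KLF2, had 4 and 4 reads in the WT + GFP libraries, 75 and 41 in those of KO + GFP and 2 and 2 in those of KO + LEENE, with a log2 fold change of 4.20 ± 0.39 (SE) by KO. Its relative Mef2d had 5 and 5, 7 and 4, and 317 and 321 reads, with a log2 fold change of 6.05 ± 0.24 in KO + LEENE against KO + GFP. Klf7 had 29 and 28, 396 and 240, and 1007 and 1051 reads, highest in KO + LEENE where Klf4 was lowest.

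All 10 listed targets of KLF2 and KLF4 were tested, with 4 higher and 4 lower by KO, 6 higher and 3 lower in KO + LEENE against KO + GFP, and 6 higher and 3 lower against WT + GFP. Thbd, the anticoagulant receptor that both factors activate, had 97 and 79 reads in the WT + GFP libraries, 11 and 2 in those of KO + GFP and 0 and 1 in those of KO + LEENE. The log2 fold change of Thbd by KO was -3.34 ± 0.34 (SE). The leukocyte adhesion molecule Icam1, which KLF2 represses, had 0 and 0, 250 and 139, and 1 and 0 reads. Angpt2 had 9 and 7, 294 and 144, and 117 and 101 reads and rose by 5.13 ± 0.24 by KO (adjusted P = 2.41e-83, edgeR). Nfe2l2, the antioxidant factor NRF2, had 47 and 46, 13 and 5, and 1098 and 1172 reads and rose by 7.18 ± 0.16 in KO + LEENE against KO + GFP (adjusted P = 2.28e-256, edgeR). Of these 4 named targets, Thbd was highest in WT + GFP, Icam1 and Angpt2 in KO + GFP, and Nfe2l2 in KO + LEENE.

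Of 12 kinase and phosphatase genes that act on eNOS 9 were tested, with 3 higher and 5 lower by KO, 3 higher and 4 lower in KO + LEENE against KO + GFP, and 4 higher and 4 lower against WT + GFP. Prkaa1, a catalytic subunit of AMPK, had 591 and 560 reads in the WT + GFP libraries, 5 and 1 in those of KO + GFP and 2 and 2 in those of KO + LEENE, with a log2 fold change of -7.13 ± 0.24 (SE) by KO. Prkca, encoding a protein kinase C, had 1419 and 1322, 647 and 431, and 5 and 4 reads. Prkaa1 and Prkca were both highest in WT + GFP.

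Of 8 partners in eNOS trafficking and acylation 6 were tested, with 3 higher and 3 lower by KO, 3 higher and 3 lower in KO + LEENE against KO + GFP, and 3 higher and 1 lower against WT + GFP. Zdhhc21, the palmitoyl transferase of eNOS, had 5 and 9 reads in the WT + GFP libraries, 391 and 275 in those of KO + GFP and 732 and 717 in those of KO + LEENE. It rose by 5.94 ± 0.21 (SE) on the log2 scale by KO (adjusted P = 1.10e-136, edgeR) and was also higher in KO + LEENE than in WT + GFP by 7.28 ± 0.17 (adjusted P = 2.69e-232, edgeR). Dynll1, a dynein light chain, had 5 and 4, 216 and 125, and 1 and 4 reads, and Lypla1, which removes palmitate, had 9 and 11, 147 and 88, and 9 and 5. Nmt1, a myristoyl transferase, had 73 and 61, 29 and 24, and 2 and 6 reads.

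Substrate and cofactor genes were sparse. Of 6 genes for arginine supply 3 were tested, with 1 higher and 0 lower by KO, 1 of each in KO + LEENE against KO + GFP, and 1 of each against WT + GFP; Asl, which makes arginine, had 97 and 74 reads in the WT + GFP libraries, 106 and 97 in those of KO + GFP and 29 and 29 in those of KO + LEENE. Asl rose by 0.65 ± 0.18 (SE) on the log2 scale by KO and fell by 1.59 ± 0.23 in KO + LEENE against KO + GFP (adjusted P = 4.85e-04 and 1.34e-11, edgeR). Of 7 genes for the cofactor tetrahydrobiopterin 1 was tested, which was called higher in KO + LEENE against WT + GFP only, and Gch1, the rate-limiting enzyme, had 2 reads in all. Of 6 genes for methylarginine synthesis, with the degrading enzyme Agxt2 among them, 2 were tested. Both were lower by KO, 1 was higher in KO + LEENE against KO + GFP, and both were lower in KO + LEENE against WT + GFP; the methyltransferase Carm1 had 1159 and 1024, 8 and 3, and 32 and 34 reads. Of the other NO synthases (Nos1 and Nos2) only Nos1 was tested, with 6 and 12, 13 and 12, and 3 and 6 reads. It was lower in KO + LEENE against KO + GFP only (log2 fold change -1.24 ± 0.58, adjusted P = 0.0487, edgeR). That size is near the shift of the median over all genes from -0.01 to 1.07 with library size only, so it is relative to the TMM scale. Of 8 genes of the NO receptor and cGMP pathway 4 were tested, with none called by KO and 2, Pde3b and Vasp, higher in KO + LEENE in each of its comparisons. Both passed the filter on low counts in KO + LEENE only, where they were high, so no result about the pathway is read from them. Vasp, a substrate of the cGMP-dependent kinase, had 2 and 3, 0 and 1, and 66 and 64 reads.

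**Figure D5:**
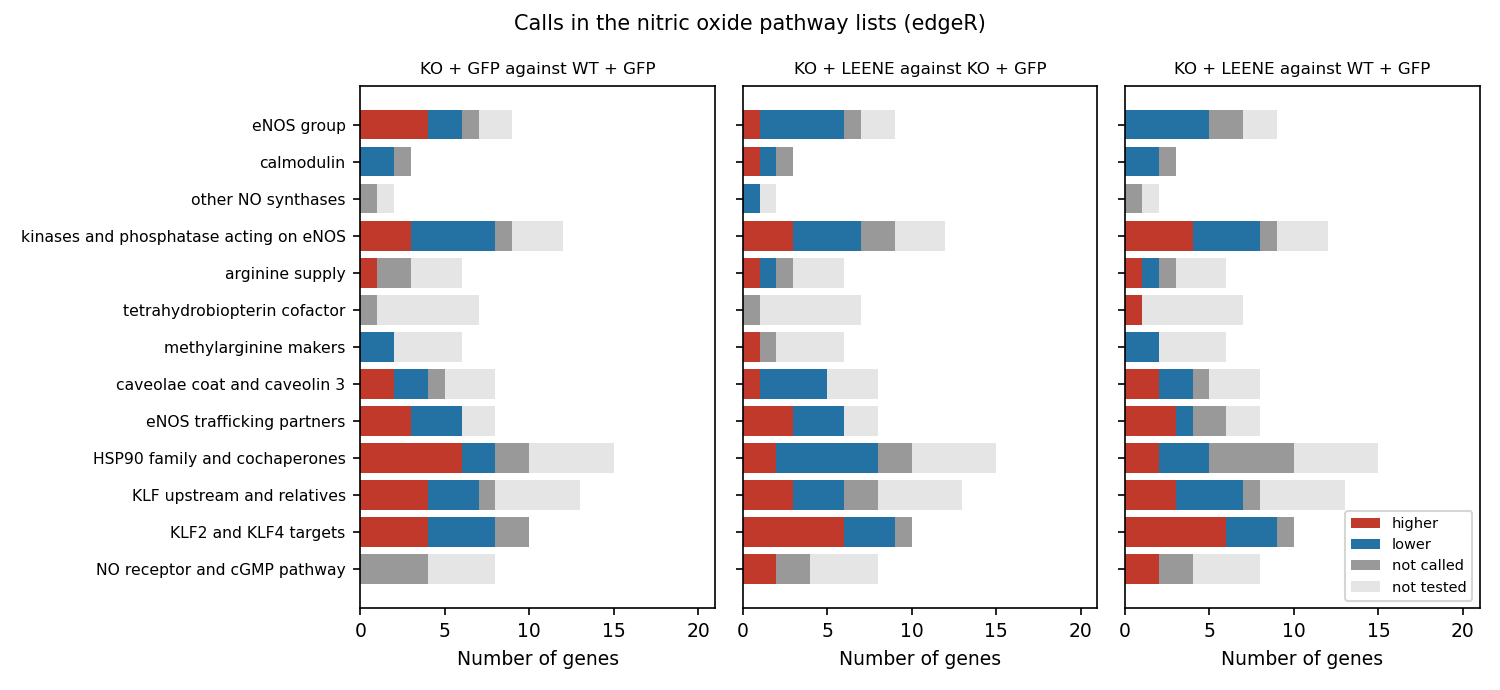
Number of genes of each list called higher or lower, not called, or not tested, in each of the 3 comparisons (edgeR, adjusted P value under 0.05); the eNOS group is the 9 genes described here. The HSP90 list has 6 genes higher and 2 lower in KO + GFP against WT + GFP, and 2 higher and 6 lower in KO + LEENE against KO + GFP, where 34.2% and 35.9%, and 32.8% and 34.9%, of all genes were called. In that list Trap1, Stip1, Hspa1b and Hsf1 passed the filter on low counts in KO + GFP only, where they were high. Their directions follow from that entry, so nothing particular to the list is read from these counts.

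Genes with the pattern nearest to each member were found among the 8903 genes tested, by the root mean square difference of mean-centred log2 CPM over the 6 libraries. For Nos3 these were Gm13815 (0.219), Runx1t1 (0.259) and Onecut3 (0.265). For Klf4 they were Gm10080 (0.242), Chd4 (0.314) and Cfl1 (0.421), and for Cav1 Gm5878 (0.107), Btbd10 (0.151) and Ect2 (0.158). For Hsp90aa1 Erc1 (0.170) was among them, and for Hsp90ab1 they were Snord55 (0.294), Grb14 (0.308) and Rcc2 (0.309). For Ddah1 they were Serpinb9c (0.1197), Gm25134 (0.129) and Gm3687 (0.132), and for Ddah2 Acaca (0.125), 9430087B13Rik (0.179) and Gm15417 (0.181). Among the members and calmodulin genes themselves, the nearest pairs were Nos3 with Calm2 (0.341) and Ddah1 with Ddah2 (0.433). The 6 points of each pattern are 3 pairs of like libraries, so likeness rests largely on 3 group levels.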

How the data were processed

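Raw read counts per gene were used as the authors deposited them, 1 file per library. Per the submitters' processing notes reads were aligned with STAR 2.5.4b to mm10, and per the file headers uniquely aligned reads were counted with featureCounts 2.0.0 over exons of Ensembl release 84 on GRCm38, without strand; no collapsing of molecular identifiers is named, so intervals hold counting error alone. Methods in the paper name mm9, TPM values and DESeq2. Gene symbols came from GENCODE vM39 by gene ID. All 6 libraries, grouped by title, entered 1 edgeR 4.0.16 quasi-likelihood fit (R 4.3.3) with TMM and filterByExpr (minimum count 10, minimum total 15; 8903 genes). P values were adjusted by Benjamini-Hochberg within a comparison over all genes, with a threshold of 0.05. An SE is the log2 fold change divided by the square root of F. CPM values use TMM-scaled library sizes unless stated. Ratios of pooled reads carry exact binomial 95% intervals (scipy 1.17.1). The fit was also run on simulated counts, the outcome of which is not reported here. The members and lists were chosen with earlier results of these data known. Named genes are the members, calmodulin, and at most 2 per list and comparison with the largest called change and at least 50 reads in a library. Some genes that this rule names are not reported here. Alternatives were other size factors, filters, depth, DESeq2 1.42.0, subsets, the replicate block and leaving out each library.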

Additional observations from a re-analysis of the deposited data

How the results depend on the processing

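With at least 10 reads in every library, the genes called numbered 1536 by KO, 1505 in KO + LEENE against KO + GFP and 1552 in KO + LEENE against WT + GFP; 3 of the 9 members were called in each, and 13, 13 and 16 of the other pathway genes. That filter removes genes absent from a group. In KO + LEENE against WT + GFP, 5 members were called, but 3 with library size only, 3 after thinning to the smallest total and 3 by DESeq2; the calls lost were those of Nos3 and Cav1, and the cause was not tested. In the other comparisons the remaining alternatives kept the counts within 1.5 times. Leaving out each replicate gave from 6 to 6 members by KO and in KO + LEENE against KO + GFP, and 3 to 5 where KO + LEENE was set against WT + GFP; here a group left with 1 library is assumed to vary like the others. The log2 fold change of Nos3 by KO ranged from -0.98 to 0.11 over these, the latter without the first WT + GFP library. In KO + LEENE against KO + GFP, that of Nos3 ranged from -1.52, without the first KO + LEENE library, to -0.21, without the second. With library size only it became 0.37. Ddah1 in KO + LEENE against WT + GFP ranged from -0.30, without the second KO + LEENE library, to 1.58. Neither -0.30, 0.11 nor 0.37 was called. With library size only, Cav1 became 0.056 and Hsp90ab1 0.20 in KO + LEENE relative to WT + GFP. Ddah1 to Ddah2 in WT + GFP, from at most 3 reads, had a log2 ratio of -0.49 without the second library and 0.74 without the first. With the replicate block, 6, 6 and 4 members and 6072, 5841 and 6147 genes were called; same-numbered libraries deviated with correlations of 0.0306, 0.0138 and 0.0192 across genes, so the numbers were not taken to pair the libraries. Nos3, Klf2 and Cav2 had few reads in every group, which limits what their values show.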

Other observations

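A gene outside the naming rule, chosen after its values were seen, was Edn1, which encodes endothelin-1, the vasoconstrictor that opposes nitric oxide and is repressed by KLF2. The WT + GFP libraries held 5096 and 4696 Edn1 reads, those of KO + GFP 449 and 306 and those of KO + LEENE 1872 and 1950. It fell by 3.30 ± 0.12 (SE) on the log2 scale by KO (adjusted P = 9.44e-127, edgeR) and rose by 2.56 ± 0.12 in KO + LEENE against KO + GFP (adjusted P = 2.96e-86, edgeR). Klf6, a relative of KLF2 and KLF4 chosen in the same way, had 3339 and 3119, 1100 and 732, and 597 and 623 reads, and its log2 fold change by KO was -1.43 ± 0.10 (adjusted P = 4.81e-40, edgeR).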
